A study of Mus musculus with 16 samples.

Results

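The miR-30 5p arms are the 5 mature microRNAs mmu-miR-30a-5p, mmu-miR-30b-5p, mmu-miR-30c-5p, mmu-miR-30d-5p and mmu-miR-30e-5p. They were taken by name from a table of 1915 mature mouse microRNAs, and each had counts in all 16 libraries. The libraries were made from extracellular vesicles (EVs) of bone marrow plasma, captured with an antibody to the HA tag, from mice aged 6 months on the C57BL/6N background. The genotype was CAGS-Snorkel//Ocn-Cre in 6 mice, 3 male and 3 female, called Ocn here. Their Cre is driven by the promoter of osteocalcin, a gene of mature osteoblasts and of osteocytes. The other 10 mice were CAGS-Snorkel//Prx1-Cre, 5 male and 5 female, called Prx1, and their Cre acts in limb bud mesenchyme and hence in its many descendants. All 16 mice thus carried both the reporter and a Cre. Sex is not labelled per library, and neither Cre-negative mice nor EVs without HA selection were analysed here.

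A microRNA is cut from a hairpin whose arms give a 5p and a 3p product, and bases 2 to 8 of the mature strand, the seed, do most of the pairing with target messenger RNAs. The miR-30 family shares a seed, so its members can act on largely the same targets. Among the targets reported in bone-forming cells are Runx2, the master transcription factor of osteoblasts, and Smad1, a transducer of bone morphogenetic protein signals, and the family is known as a brake on osteoblast differentiation that declines as osteoblasts mature. It is also abundant in heart, kidney, endothelium and fat.

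The mature sequences below, from RefSeq on GRCm38.p6, show what the members share and where they part. RefSeq matched 3 of the 5 members (miR-30b-5p and miR-30d-5p are named only). Capitals mark the seed.
mmu-miR-30a-5p: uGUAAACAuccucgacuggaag
mmu-miR-30e-5p: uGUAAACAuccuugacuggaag
mmu-miR-30c-5p: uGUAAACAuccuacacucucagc
mmu-miR-384-5p: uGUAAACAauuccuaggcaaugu
The 3 matched members are identical over their first 12 bases. miR-30a-5p and miR-30e-5p are identical at 21 of 22 positions and differ by C13U, counted from 1 at the 5′ end with the base of miR-30a-5p first. Of 1679 mature names in the sequence table, 4 (0.238%) hold this seed. The fourth, miR-384-5p, is a brain microRNA that is not counted in the family by name, and it had 0 or 1 count in each library.

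The hairpins lie in 3 pairs on GRCm38, the assembly also called mm10. Mir30a (chr1:23272269-23272339, plus strand) overlaps no annotated gene, and Mir30c-2 (chr1:23291701-23291784, plus strand), 19361 bases from it, overlaps an exon of a lincRNA, Gm27028. Mir30e (chr4:120772606-120772697, minus strand) and Mir30c-1 (chr4:120769534-120769622, minus strand) are 2983 bases apart in an intron of Nfyc, which encodes a subunit of the transcription factor NF-Y. Mir30d (chr15:68341208-68341289, minus strand) and Mir30b (chr15:68337415-68337510, minus strand) are 3697 bases apart. Each overlaps an exon of a noncoding gene, Gm20732 for Mir30d and Gm26621 for Mir30b. Mir30d also overlaps an exon of another gene on the same strand, Gm37296. Both miR-30c hairpins yield the same 5p product, so its counts cannot be given to either.

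The hairpins are shown because their arms are compared further on, with both mature arms in capitals.
Mir30a: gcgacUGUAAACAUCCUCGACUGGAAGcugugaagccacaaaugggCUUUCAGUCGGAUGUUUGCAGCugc
Mir30e: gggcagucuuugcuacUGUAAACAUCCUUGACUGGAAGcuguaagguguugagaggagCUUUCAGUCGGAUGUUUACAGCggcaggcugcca
Mir30c-2: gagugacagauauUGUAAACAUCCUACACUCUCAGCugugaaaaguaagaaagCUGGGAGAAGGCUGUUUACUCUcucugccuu
Mir30c-1: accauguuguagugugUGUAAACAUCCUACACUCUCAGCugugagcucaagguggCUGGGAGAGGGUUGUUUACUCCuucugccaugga

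Library totals ran from 582660 to 1536421 counts in Ocn and from 225273 to 813770 counts in Prx1, so the Ocn libraries were deeper as a group. The 5 members together held 11011 to 32730 counts per Ocn library and 4478 to 19842 counts per Prx1 library. Levels below are CPM, counts scaled to the library total. The mature strands differ in length by at most a base among the matched members, so levels were compared between members without a length correction, although ligation during library preparation can favour some sequences. All 5 members passed the filter on low counts.

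miR-30d-5p was the member that differed between the groups, at 1.49-fold lower in Ocn by edgeR. Log2 fold changes of Ocn over Prx1 were -0.04 for miR-30a-5p and 0.01 for miR-30e-5p, and -0.34 for miR-30b-5p and -0.22 for miR-30c-5p, and none of these 4 passed the edgeR test (0 also at an unadjusted p under 0.05, and 0 with DESeq2 or limma voom). Of all 234 tested microRNAs, 62 had an unadjusted p under 0.05 with edgeR. Counts of miR-30d-5p exceeded those of miR-30a-5p in 3 of 6 Ocn libraries and in 10 of 10 Prx1 libraries. Relative to miR-30d-5p in the same library, both miR-30a-5p and miR-30e-5p were higher in Ocn, as were most tested microRNAs (57.9% of 233 ratios to miR-30d-5p passed in either direction), and neither passed with the library total as a covariate (limma adjusted p = 0.224 and 0.0944).

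miR-30d-5p ran from 6336 to 9004 CPM in Ocn, with a median of 7450 CPM, and from 7283 to 14409 CPM in Prx1, with a median of 10985 CPM. All 6 Ocn libraries lay below the Prx1 median, and 8 of 10 Prx1 libraries lay above every Ocn library. Only 2 of 6 Ocn libraries lay below every Prx1 library, so the ranges overlapped. It averaged 7463 ± 892 CPM over the Ocn libraries and 10875 ± 2268 CPM over the Prx1 libraries (SD, n = 6 and 10). The log2 fold change of Ocn over Prx1 was -0.58 (SE 0.13), with an adjusted p of 0.00478 by edgeR's quasi-likelihood test with Benjamini-Hochberg adjustment over 234 tested microRNAs. It ranked 8 among them by p. With any single library left out, the log2 fold change stayed between -0.63 and -0.50 and the edgeR adjusted p between 0.000380 and 0.0133.

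The call on miR-30d-5p ended under 2 of 12 other ways of processing. With library depth (log10 total) added as a covariate its log2 fold change was -0.56, while the SE grew to 0.19 and the edgeR adjusted p to 0.142, and 0 of 234 microRNAs passed. In the other, the counts of miR-30a-5p, miR-30d-5p and miR-30e-5p, whose mature sequences are nearly identical, were summed to a single entry. The log2 fold change of this entry was -0.27 (SE 0.11, edgeR adjusted p = 0.0989). The same fit summed miR-30b-5p and miR-30c-5p to another entry.

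**Figure D1:**
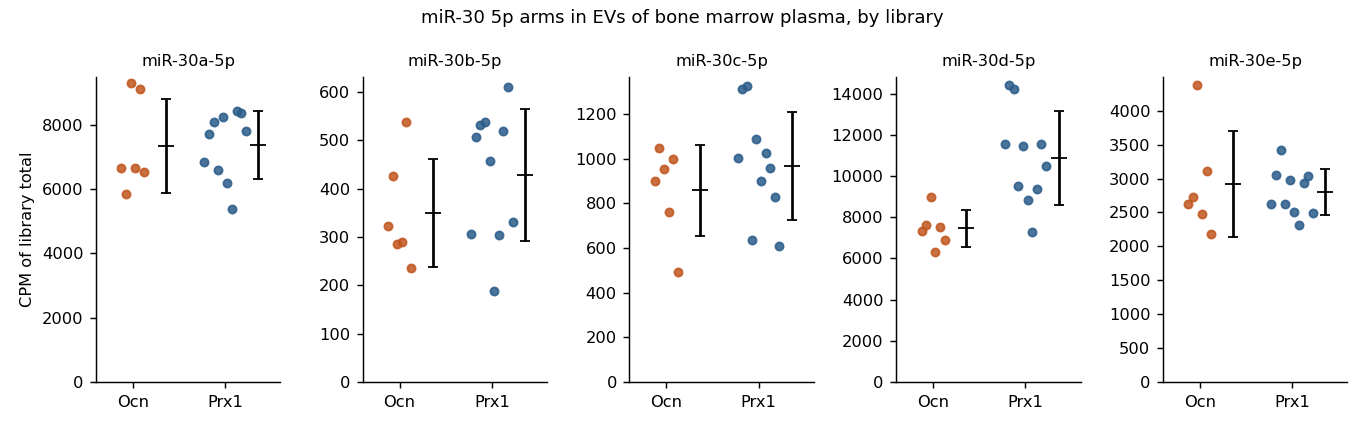
Level of each miR-30 5p arm in CPM of the library total (linear axes from 0), with a point per library, Ocn left of Prx1, and the mean ± SD beside the points. miR-30d-5p is the member with 8 of 10 Prx1 libraries above every Ocn library.

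miR-30a-5p ran from 5845 to 9282 CPM in Ocn (median 6659 CPM) and from 5367 to 8438 CPM in Prx1 (median 7751 CPM). The ranges overlapped almost wholly, with 9 of 10 Prx1 libraries inside the Ocn range. Means were 7348 ± 1462 CPM in Ocn and 7357 ± 1054 CPM in Prx1 (SD, n = 6 and 10), and the log2 fold change was -0.04 (SE 0.12, edgeR adjusted p = 0.849).

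miR-30e-5p averaged 2919 ± 781 CPM over the Ocn libraries and 2801 ± 338 CPM over the Prx1 libraries (SD, n = 6 and 10). Its range in Ocn, 2183 to 4385 CPM, enclosed that in Prx1, 2320 to 3426 CPM, and the medians were 2679 CPM (Ocn) and 2786 CPM (Prx1). The log2 fold change was 0.01 (SE 0.12, edgeR adjusted p = 0.936). The highest Ocn value belonged to Ocn 3, which was also the highest Ocn library for miR-30a-5p and miR-30d-5p.

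miR-30c-5p ran from 491 to 1049 CPM in Ocn (median 925 CPM) and from 610 to 1324 CPM in Prx1 (median 983 CPM). It averaged 858 ± 206 CPM in Ocn and 969 ± 242 CPM in Prx1 (SD, n = 6 and 10), a log2 fold change of -0.22 (SE 0.17, edgeR adjusted p = 0.425). The groups overlapped, with 7 of 10 Prx1 libraries inside the Ocn range.

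miR-30b-5p, whose hairpin neighbours that of miR-30d, ran from 235 to 537 CPM in Ocn (median 306 CPM) and from 188 to 610 CPM in Prx1 (median 481 CPM). Its mean was 349 ± 112 CPM in Ocn and 429 ± 137 CPM in Prx1 (SD, n = 6 and 10), and its log2 fold change of -0.34 (SE 0.20, edgeR adjusted p = 0.281) missed the threshold. It was the member that moved most with the library total as a covariate, to -0.90 (SE 0.27, edgeR adjusted p = 0.0869). The lowest count of any member in a library was 53, for miR-30b-5p in Prx1 6.

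Among all tested microRNAs 13.7% passed the threshold in either direction and 7.69% were lower in Ocn, and of the 5 members 1 passed, lower in Ocn. The median log2 fold change of the members was -0.22, against 0.01 over all 234 tested. In captured EVs, fewer vesicles of a given source and fewer copies of a microRNA per vesicle cannot be told apart.

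**Figure D2:**
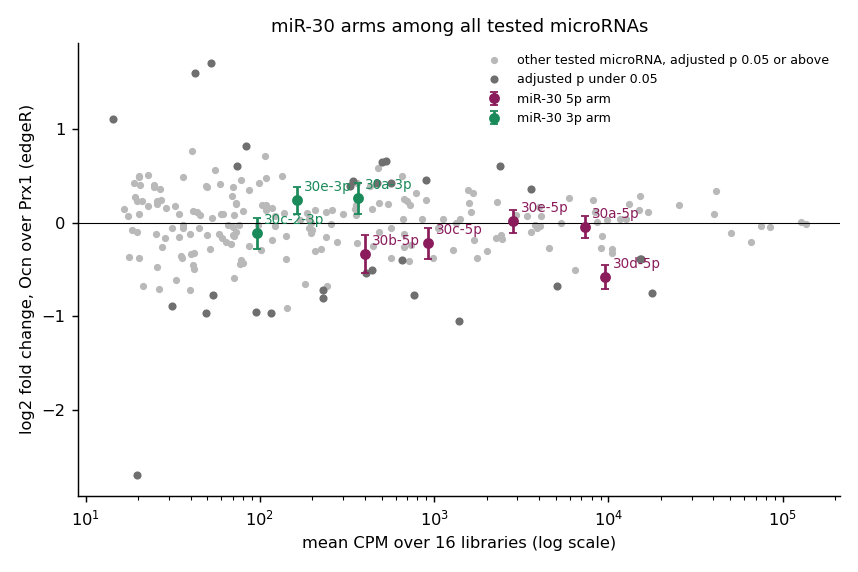
Log2 fold change of Ocn over Prx1 (edgeR) against mean CPM over 16 libraries (log axis) for the 234 tested microRNAs. The 5p arms are purple and the tested 3p arms green, with bars of 1 SE. miR-30d-5p, at -0.58, stands apart from miR-30a-5p at -0.04 and miR-30e-5p at 0.01.

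Whether the other members moved unlike miR-30d-5p was tested within libraries, on the log2 ratio of each microRNA's count to that of miR-30d-5p, the most abundant member over all libraries. Such a ratio needs no scaling between libraries. miR-30a-5p was nearly level with miR-30d-5p in Ocn, with 0.984 ± 0.149 counts per count of miR-30d-5p, against 0.690 ± 0.105 in Prx1 (SD, n = 6 and 10). In 5 of 6 Ocn libraries the ratio was above every Prx1 library. The difference in mean log2 ratio, Ocn minus Prx1, was 0.51 (SE 0.14, limma adjusted p = 0.00579).

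miR-30e-5p had 0.387 ± 0.059 counts per count of miR-30d-5p in Ocn and 0.263 ± 0.035 in Prx1 (SD, n = 6 and 10), again with 5 of 6 Ocn libraries above every Prx1 library. The difference was 0.55 (SE 0.13, limma adjusted p = 0.00306). For miR-30c-5p it was 0.35 (SE 0.19, limma adjusted p = 0.118), and for miR-30b-5p it was 0.25 (SE 0.23, limma adjusted p = 0.349). In the same fit the median difference over all 233 ratios was 0.59, as the denominator was itself lower in Ocn. The ratios of miR-30a-5p and miR-30e-5p to miR-30d-5p were below this median, and they are not independent of the lower level of miR-30d-5p. With the library total as a covariate the difference was 0.34 (SE 0.21) for miR-30a-5p and 0.49 (SE 0.21) for miR-30e-5p.

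**Figure D3:**
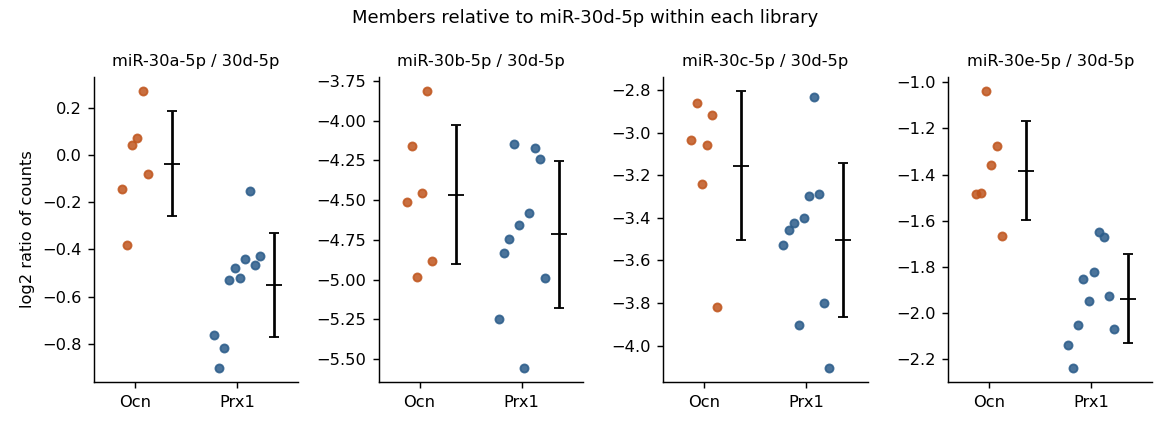
Log2 ratio of the counts of each other member to miR-30d-5p, with a point per library, Ocn left of Prx1, and the mean ± SD beside the points. The groups overlap for every member shown. For miR-30a-5p and miR-30e-5p, 5 of 6 Ocn libraries lie above every Prx1 library, against 1 for miR-30b-5p and 0 for miR-30c-5p.

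miR-30a-5p and miR-30e-5p, from different chromosomes and differing at a single base, had similar ratios to each other in both groups. Per count of miR-30e-5p there were 2.57 ± 0.38 counts of miR-30a-5p in Ocn and 2.63 ± 0.25 in Prx1 (SD, n = 6 and 10). miR-30c-5p and miR-30e-5p, which share the Nfyc intron, had log2 fold changes of -0.22 and 0.01. miR-30b-5p and miR-30d-5p, from neighbouring hairpins, had -0.34 and -0.58. Whether reads with a mismatch could be counted for a near-identical member is not given in the sources used here, and its part in these ratios was not tested.

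The order of the members by mean level was the same in both groups, from miR-30d-5p through miR-30a-5p, miR-30e-5p and miR-30c-5p to miR-30b-5p. In Ocn the first 2 did not differ beyond their spread, at a ratio of means of 1.02, whereas in Prx1 the mean of miR-30d-5p was 1.48 times that of miR-30a-5p. Every lower step of the order held in 6 of 6 Ocn and 10 of 10 Prx1 libraries. By mean CPM, miR-30d-5p ranked 27 of 1915 entries in Ocn and 21 in Prx1, and miR-30a-5p ranked 28 in both.

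Together the members made up 1.89% ± 0.30 of all counts in Ocn and 2.24% ± 0.36 in Prx1 (SD, n = 6 and 10). Their sum ran from 16367 to 23908 CPM in Ocn and from 16300 to 27585 CPM in Prx1, so the groups overlapped. Without miR-30d-5p the remaining 4 members summed to 11474 ± 2268 CPM in Ocn and 11556 ± 1519 CPM in Prx1 (SD, n = 6 and 10). These sums are given without a test.

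Within the family, miR-30d-5p made up 39.7% ± 3.0 of the counts of the 5 members in Ocn and 48.2% ± 3.4 in Prx1 (SD, n = 6 and 10). The lowest share was 35.4% in Ocn 5 (95% Wilson interval 34.9 to 35.95%) and the highest 53.4% in Prx1 2 (52.4 to 54.4%), and 9 of 10 Prx1 libraries were above every Ocn library. The exception was Prx1 8, at 42.2%. miR-30a-5p made up 38.7% ± 3.3 in Ocn and 33.0% ± 2.9 in Prx1, and miR-30e-5p made up 15.2% ± 1.7 in Ocn and 12.6% ± 0.9 in Prx1. miR-30c-5p held 4.54% ± 0.99 in Ocn and 4.35% ± 1.01 in Prx1, and miR-30b-5p held 1.85% ± 0.53 in Ocn and 1.90% ± 0.52 in Prx1. The intervals cover counting error only, and since shares sum to the whole, a lower share of miR-30d-5p raises the others.

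**Figure D4:**
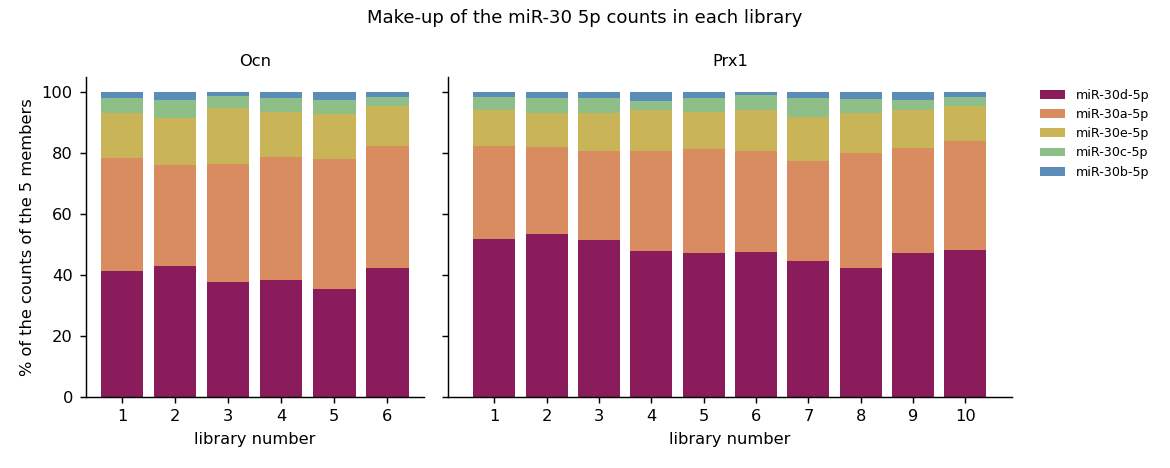
Share of each member in the counts of the 5 members (%, stacked bars from 0), per library, Ocn left and Prx1 right. The miR-30d-5p share is 35.4 to 43.1% in Ocn and 42.2 to 53.4% in Prx1.

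The 3p arms come from the same hairpins but carry other seeds. Of the 6, miR-30a-3p, miR-30e-3p and miR-30c-2-3p passed the filter on low counts and 0 passed the edgeR threshold (0 also at an unadjusted p under 0.05, and 0 with DESeq2 or limma voom). Among all 234 tested microRNAs, 62 had an unadjusted p under 0.05 with edgeR. miR-30a-3p averaged 414 ± 75 CPM over the Ocn libraries and 334 ± 83 CPM over the Prx1 libraries (SD, n = 6 and 10), a log2 fold change of 0.26 (SE 0.17, edgeR adjusted p = 0.307). For miR-30e-3p, 184 ± 36 CPM in the Ocn libraries stood against 151 ± 29 CPM in the Prx1 libraries, with a log2 fold change of 0.24 (SE 0.14, edgeR adjusted p = 0.279). For miR-30c-2-3p the means were 92.3 ± 23.2 CPM (Ocn) and 98.2 ± 17.0 CPM (Prx1), with a log2 fold change of -0.12 (SE 0.16, edgeR adjusted p = 0.708).

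The 5p arm dominated each tested hairpin. For miR-30a the 5p count was on average (geometric mean) 17.7 times the 3p count in Ocn and 22.5 times in Prx1. For miR-30e it was 15.6 times in Ocn and 18.6 times in Prx1. The log2 ratio of 5p to 3p, Ocn minus Prx1, differed by -0.34 for miR-30a (SE 0.23, limma adjusted p = 0.326), -0.25 for miR-30e (SE 0.18, limma adjusted p = 0.334) and -0.06 for miR-30c-2 (SE 0.22, limma adjusted p = 0.837). None of the 3 passed, against 6% of 50 hairpin pairings tested and 9 of 50 with an unadjusted p under 0.05. The miR-30c-2 ratio uses 5p counts that Mir30c-1 also supplies.

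The remaining 3p arms were near the limit of counting. miR-30d-3p had 4 to 9 counts in each Ocn library and 0 to 4 in each Prx1 library, or 8.38 ± 4.33 CPM in Ocn and 3.47 ± 1.82 CPM in Prx1 (SD, n = 6 and 10). It was at 0 in Prx1 4, where a count of 0 allows up to 13.3 CPM. All 3 arms were under the filter on low counts, so their differences were not tested. miR-30b-3p had 4 to 15 counts in Ocn and 0 to 8 in Prx1, and miR-30c-1-3p had 0 to 7 in Ocn and 1 to 5 in Prx1.

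Other microRNAs were ranked by how constant their ratio to each member was, as the SD of the log2 ratio of counts over the 16 libraries. This is a description, as libraries share preparation and group. Closest to miR-30a-5p were miR-30e-5p (SD 0.164), the endothelial miR-126a-5p (0.166) and miR-10a-5p (0.204), against a median of 0.439 over 233 microRNAs. Closest to miR-30e-5p were miR-101b-3p (SD 0.135), miR-126a-5p (0.142) and miR-30a-5p (0.164). miR-30d-5p ranked only 47 for miR-30a-5p and 65 for miR-30e-5p.

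Closest to miR-30d-5p were miR-339-5p (SD 0.200), miR-191-5p (0.212) and miR-425-5p (0.216), against a median of 0.518. Their own log2 fold changes were -0.53 for miR-339-5p (SE 0.16, edgeR adjusted p = 0.0257), -0.32 for miR-191-5p (SE 0.13, edgeR adjusted p = 0.0940) and -0.18 for miR-425-5p (SE 0.12, edgeR adjusted p = 0.337). miR-30a-5p, the nearest family member, ranked 20 for miR-30d-5p. Closest to miR-30c-5p were miR-29b-3p (SD 0.291), miR-423-3p (0.298) and miR-107-3p (0.311), and closest to miR-30b-5p were miR-324-5p (SD 0.313), miR-221-3p (0.374) and miR-29c-3p (0.375). The scarcer members had larger SDs, to which their lower counts add.

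Of 9 other microRNAs reported to restrain osteoblasts through Runx2, 5 passed the filter on low counts and 1 passed the edgeR threshold. This was miR-133a-3p, which is also a muscle microRNA, with a mean of 3743 ± 621 CPM (SD, n = 6) in the Ocn libraries and 5870 ± 1661 CPM (SD, n = 10) in the Prx1 libraries. Its log2 fold change was -0.68 (SE 0.16, edgeR adjusted p = 0.00819), and the median over the 5 was 0.15. DESeq2 and limma voom each called 1 of the 5 higher and 1 lower in Ocn. Among families set beside miR-30, the miR-29 family had 1 of 3 tested members lower in Ocn by edgeR (miR-29a-3p) and 2 by limma voom. The miR-181 family had 2 of 4, miR-181c-5p and miR-181a-5p, higher in Ocn by edgeR, and DESeq2 and limma voom also called 2. Over all 234 tested microRNAs edgeR called 18 lower and 14 higher in Ocn. The let-7 family had 0 of 9 past the edgeR threshold (0 also at an unadjusted p under 0.05, and 0 with DESeq2 or limma voom), with log2 fold changes from -0.21 to 0.07.

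Some markers of other cells passed the edgeR threshold, as did 13.7% of all 234 tested microRNAs in either direction. Of 5 erythroid microRNAs 2 were lower in Ocn, miR-486a-5p (log2 fold change -0.39, edgeR adjusted p = 0.0451) and its copy miR-486b-5p. Their mean levels were almost the same, 13100 and 12999 CPM in Ocn and 16695 and 16545 CPM in Prx1. These 2 calls are thus not separate evidence, and both entries are in the list sums. The other 3 had positive log2 fold changes that did not pass with edgeR, 0.58 for miR-144-3p (edgeR adjusted p = 0.0569), 0.22 for miR-451a and 0.17 for miR-144-5p, and DESeq2 and limma voom each called 1 of the 5 higher and 2 lower in Ocn. The list median was 0.17, and list sums were 23947 to 43670 CPM in Ocn and 31873 to 47291 CPM in Prx1. Of 2 lymphocyte microRNAs 1 was lower in Ocn, miR-150-5p (log2 fold change -1.05, edgeR adjusted p = 0.00125), with sums of 2019 to 4495 CPM in Ocn and 2780 to 5828 CPM in Prx1. Of 4 muscle microRNAs tested, miR-133a-3p and its relative miR-133b-3p passed as lower in Ocn. The most abundant, miR-1a-3p, averaged 48287 ± 9033 CPM over the Ocn libraries and 37029 ± 10218 CPM over the Prx1 libraries (SD, n = 6 and 10), with a log2 fold change of 0.34 (edgeR adjusted p = 0.187), and miR-206-3p had -0.29 (edgeR adjusted p = 0.487). Sums over all 7 listed were 46734 to 77424 CPM in Ocn and 39906 to 70781 CPM in Prx1, and these overlapped. Of 5 mesenchymal and stromal microRNAs 1 was higher in Ocn, miR-199a-5p (log2 fold change 0.43, edgeR adjusted p = 0.0290), with sums of 31426 to 43032 CPM in Ocn and 26518 to 34989 CPM in Prx1.

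In the other lists 0 microRNAs passed with edgeR. The 4 myeloid microRNAs summed to 39360 to 94638 CPM over the Ocn and 42431 to 69316 CPM over the Prx1 libraries, the 2 endothelial ones to 16712 to 20837 CPM (Ocn) and 12913 to 19289 CPM (Prx1), and the 6 epithelial ones to 258 to 463 CPM in Ocn and 232 to 360 CPM in Prx1. Among the 4 myeloid, 2 endothelial and 3 epithelial microRNAs that passed the filter on low counts, 0 had an unadjusted p under 0.05 with edgeR and 0 were called by DESeq2 or limma voom. Both chondrocyte microRNAs, miR-140-3p and miR-140-5p, had an unadjusted p under 0.05 with edgeR, as did 62 of all 234 tested microRNAs. Of these 2 chondrocyte microRNAs, limma voom called 1 higher and 1 lower in Ocn. Their sums were 5266 to 6792 CPM in Ocn and 3672 to 11269 CPM in Prx1. The liver microRNA miR-122-5p was under the filter, at 4.402 to 23.5 CPM in Ocn and 0 to 1644 CPM in Prx1. Its Prx1 median was 7.17 CPM, and 1 of 10 Prx1 libraries lay above every Ocn library. None of the listed markers was at 0 in every library, and the part of these cells in the level of miR-30d-5p was not tested.

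**Figure D5:**
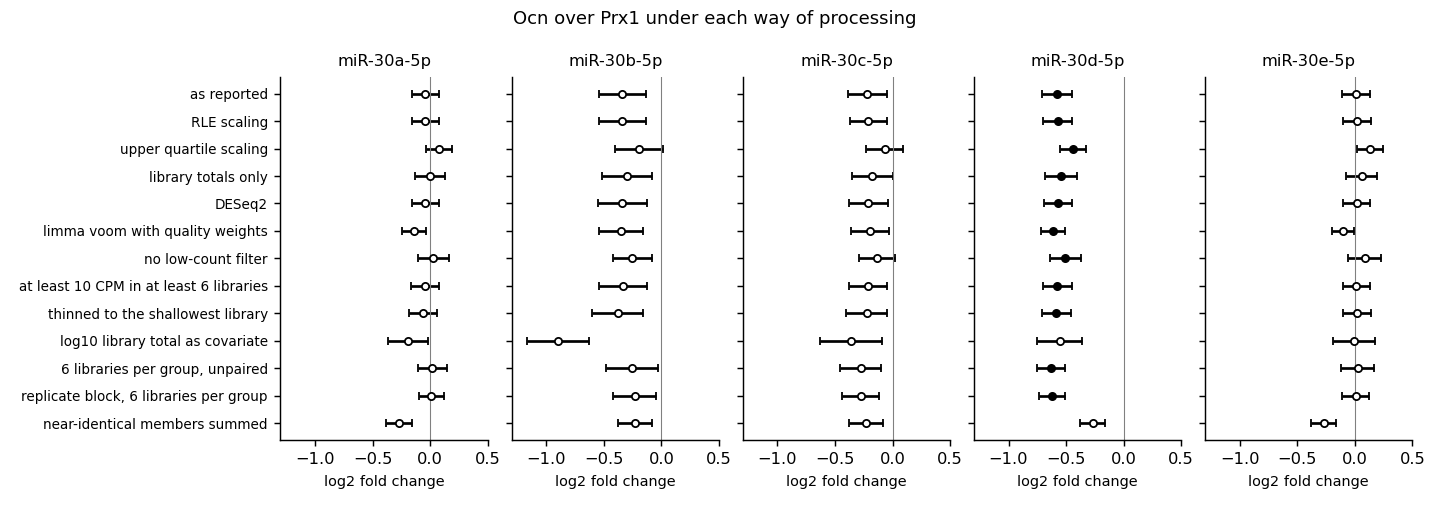
Log2 fold change of Ocn over Prx1 for each member as reported and under 12 other ways of processing, with bars of 1 SE and filled points where the adjusted p is under 0.05. miR-30d-5p is filled in all but the fit with the library total as a covariate and the fit with near-identical members summed. The 4 other members are open throughout. In the summed fit miR-30a-5p, miR-30d-5p and miR-30e-5p show a single shared value, and miR-30b-5p and miR-30c-5p share another.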

How the data were processed

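The deposited table holds raw counts per mature microRNA, whole numbers that the authors did not normalize, as read from the values. The submitters' processing notes name cutadapt 1.18 and build mm10. Not given in the sources used here are the aligner, its mismatch setting, the counting tool, and the choice between reads and unique molecular identifiers as the counted unit. If reads were counted, they are not independent molecules, so intervals and floors cover counting error only.

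Libraries were grouped by title into 6 Ocn and 10 Prx1. The p-values set the difference between groups against the spread of libraries within them. Chi-square over degrees of freedom was at least 5.04 in all 60 pairs of libraries within groups, so none was the same library counted again. This cannot show whether any were separate preparations from the same mouse. After filterByExpr, 234 entries were tested with edgeR 4.0.16 in R 4.3.3 (TMM, robust quasi-likelihood, group as the only term, Benjamini-Hochberg adjustment over all entries, threshold 0.05). SE is the size of the log2 fold change divided by the square root of F. Ratios of counts plus 0.5 were tested with limma 3.58.1 over all entries, and over 50 pairings of a 5p with a 3p arm. The edgeR test and a ratio test were tried on simulated data, where the reference of the ratios did not differ between groups, unlike miR-30d-5p here. The test on arm ratios was not simulated. Hairpin positions and hosts are from GENCODE M21, which is on GRCm38.

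Named microRNAs are the members, their 3p arms, entries with the same seed, the 3 closest in likeness to each member, and called or abundant entries of fixed lists. Members and lists were chosen with earlier results of these data known. Alternatives were other scalings, filters and tests (DESeq2 1.42.0, limma voom), thinned counts, the library total as a covariate, a replicate block, summed near-identical members and each library left out in turn.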

Additional observations from a re-analysis of the deposited data

How the results depend on the processing

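miR-30d-5p kept its direction in all 12 other settings and its call in 10. The 2 that ended it were the library total as a covariate (-0.56) and near-identical members summed (-0.27). Why the call ended in either was not tested. miR-30a-5p passed in none of the 12, and was at -0.19 with the covariate and -0.14 with voom. It turned sign with upper quartile scaling (0.0768), no low-count filter (0.0277), the replicate block (0.0113) and 6 unpaired libraries per group (0.0189). miR-30e-5p did so with voom (-0.105) and the covariate (-0.00836), and the cause was not tested. The -0.27 with members summed belongs to the entry shared by miR-30a-5p, miR-30d-5p and miR-30e-5p, not to any of them alone. Upper quartile scaling put the median log2 fold change of all tested at 0.135, against 0.0104 as reported. Of all tested microRNAs, 14 were higher and 18 lower in Ocn, against 26 and 11 with upper quartile scaling, 24 higher with voom, 8 higher after thinning, and 0 and 0 with the covariate, where 40 had an unadjusted p under 0.05. The covariate gave 12 calls on ratios to miR-30d-5p, against 135, with 0.34 for miR-30a-5p, 0.49 for miR-30e-5p and -0.36 for miR-30b-5p. It gave 0 calls on arm ratios, against 3 (4 and 9 at an unadjusted p under 0.05), and the miR-30c-2 arm ratio turned to 0.0703 with it and to 0.0179 with a pseudocount of 5.

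With a library left out, log2 fold changes ran from -0.0916 to 0.0635 for miR-30a-5p, -0.0444 to 0.13 for miR-30e-5p, -0.27 to -0.04 for miR-30c-5p and -0.42 to -0.18 for miR-30b-5p. Calls ran from 8 to 20 higher and 13 to 20 lower, with 8 higher without Prx1 2 and 9 without Prx1 1 or Prx1 3. Calls on ratios ran from 116 to 153 and on arm ratios from 2 to 6, with 5 without Prx1 4, 6 without Prx1 7, and 2 without Ocn 1 or Ocn 6. The miR-30c-5p ratio ran from 0.28 to 0.48 and passed without Ocn 6 (limma adjusted p = 0.0374) or Prx1 7 (limma adjusted p = 0.0381), and the miR-30c-2 arm ratio ran from -0.18 to 0.0885.

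The numbers 1 to 6 shared by the groups are not stated to pair mice. Deviations of libraries with the same number correlated by 0.00198 to 0.234, and 1 of 6 Ocn libraries correlated best with its own number. With the replicate block miR-30d-5p had -0.62 (edgeR adjusted p = 0.00264), and 13 were higher and 14 lower. Depth limits the 3p arms of miR-30b, miR-30c-1 and miR-30d, and library totals differed with the group (log10 total 5.94 ± 0.17 in Ocn and 5.58 ± 0.16 in Prx1).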

Other observations

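miR-30f, read from the strand opposite Mir30e, had 0 counts in each of the 6 Ocn libraries and 1 count in each of Prx1 5 and Prx1 10, with 0 in the other Prx1 libraries. Its mature sequence in RefSeq begins at the first base of the family seed, so its bases 2 to 8, in capitals, differ from those of the members.
mmu-miR-30f: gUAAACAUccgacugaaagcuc
In 28 sets of values (the members, their sum, their shares and the tested 3p arms, each within Ocn and within Prx1), no library stood apart from its group by Dixon's criterion at the 95% level.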
